A study of Mus musculus with 9 samples.

Results

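G-protein-coupled receptors other than chemokine receptors were described in 3 sorted populations of mouse CD4+ T cells. Members were taken by gene symbol, reached through the RefSeq accession of each array probe. A symbol qualified if it began with Gpr and a digit, Adgr, P2ry, Ptger, Ptgir, Ptgdr, Ltb4r, S1pr, Lpar, Adora, Adrb, Hrh, F2r or Cysltr. Of 32451 genes on the array, 142 were members, with 71 Gpr genes, 26 adhesion receptors (Adgr) and 45 receptors named for a lipid, nucleotide, adenosine, amine or protease ligand. No measured value entered that choice.

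RNA came from BALB/c mice, 3 arrays for each population, and was hybridised to 1-colour Agilent arrays after Cy3 labelling. Th17 cells were sorted as CD3+ CD4+ CD45RB low cells that secreted IL-17A and no interferon gamma. Th1 cells were CD45RB low cells that secreted interferon gamma and no IL-17A. Naive cells were CD3+ CD4+ and CD45RB high. Every population, the naive one included, came from spleen and lymph nodes and had been exposed for 3 h to the phorbol ester PMA at 10 ng/ml plus the calcium ionophore ionomycin at 500 ng/ml, so no unstimulated level is at hand. Genotype beyond the strain, age and sex of the mice were not given in the sources used here, nor whether replicates were separate animals, and p-values therefore measure a spread that may be technical.

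These receptors span the membrane and, once a ligand binds, release the alpha subunit and the beta-gamma pair of a G protein. Gs raises cyclic AMP through adenylyl cyclase, Gi lowers it and steers migration, Gq opens calcium stores through phospholipase C, and G12/13 acts on cell shape and adhesion. In T cells such receptors read prostaglandins, leukotrienes, lysophospholipids, nucleotides, protons and oxysterols, and they guide entry into and exit from lymphoid tissue.

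A level is the log2 processed intensity of a spot minus the 75th percentile of its array, and a probe's level is not compared with another probe's. A probe was tested where 3 or more of the 9 arrays showed it well above background. That left 70 of the 142 members, 30 ligand-named receptors and 40 Gpr or adhesion receptors, and 47 of the 70 were above background on all 9 arrays. The other 72 were not tested. Of them, 54 were above background on no array and 18 on 1 or 2 arrays. The untested ligand-named members were Ptgdr, Ptger1, Ptger3, Ptgir, Lpar1, Lpar2, Lpar4, S1pr5, Adora1, Adora3, P2ry4, P2ry6, P2ry12, P2ry13 and P2ry14. A filter of this kind keeps a receptor that is bright in 1 population alone, so counts over tested members do not speak for all members.

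Libraries differed little in depth of signal, with 53.4% to 58.3% of probes well above background. Slides and populations were partly entangled, since slide 1 carried the naive arrays and Th1 replicate 1, slide 2 carried Th1 replicates 2 and 3 with Th17 replicates 1 and 2, and slide 3 carried Th17 replicate 3. Where a slide term ends the call of a receptor described below, its value is given beside that call. With a slide term, the Th1 against naive estimate comes from slide 1 alone, where Th1 replicate 1 is the only Th1 array. The Th17 against Th1 estimate then comes from slide 2 alone. The Th17 against naive estimate joins these and so also hangs on Th1 replicate 1. All 7 CD4 T cell markers were above background on every array. Of 45 listed markers of other cells, 18 were above background on no array, among them Cd8a, Pax5, Ncr1 and Fcgr1, 18 on 1 to 8 arrays, and 9 on all (Cd8b1, Cd22, Csf1r, Cd14, Zbtb46, Siglech, Elane, Kit and Hba-a1). Several moved with the populations. The 7 B cell markers summed to 0.753 to 1.01 in Th17, 0.937 to 1.16 in Th1 and 0.373 to 0.520 in naive arrays. Cd22 carried that sum and was higher in Th17 and in Th1 than in naive cells (1.18 and 1.37). Of these 7 markers, 5 were above background on no Th17 array. Cd8b1 was lower in Th17 and in Th1 than in naive cells (-3.42 and -3.31), with summed CD8 markers, on the linear scale relative to the 75th percentile, at 0.0546 to 0.0757 in Th17, 0.0644 to 0.0748 in Th1 and 0.576 to 0.686 in naive arrays. Eomes, listed for NK cells, was above background on 1 Th17 array and on all Th1 and naive arrays, and the 4 NK markers summed to 0.0200 to 0.0687 in Th17, 0.246 to 0.523 in Th1 and 0.642 to 1.0 in naive arrays. Hba-a1 of red cells was 4.48 higher in Th17 than in naive cells (adjusted p = 0.014), and the 4 red cell markers summed to 0.896 to 2.79 in Th17, 0.0508 to 1.31 in Th1 and 0.0525 to 0.123 in naive arrays. Xcr1, a dendritic cell marker, was above background on the Th1 arrays alone, while the 6 dendritic cell markers summed to 179.4 to 215.5 in Th17, 177.3 to 201.9 in Th1 and 162.6 to 168.8 in naive arrays. The dendritic cell sum was carried by Siglech, at 7.63 ± 0.13 in Th17, 7.57 ± 0.10 in Th1 and 7.38 ± 0.03 in naive cells (SD, n = 3 each). Of these 6 markers, 3 were above background on no Th17 array. The 5 mast cell and basophil markers summed to 8.77 to 13.6 in Th17, 0.473 to 0.557 in Th1 and 0.680 to 0.897 in naive arrays. That sum was carried by Kit, at 3.45 ± 0.32 in Th17, -1.04 ± 0.11 in Th1 and -0.37 ± 0.22 in naive cells (SD, n = 3 each), while 3 of the 5 markers were above background on no Th17 array. Cd14, a monocyte marker, stood at -1.05 ± 0.71 in Th17, -3.51 ± 0.41 in Th1 and -4.10 ± 0.31 in naive cells (SD, n = 3 each). The 6 monocyte and macrophage markers with a probe had their highest sum in naive arrays. It was 4.41 to 4.70 there, against 3.13 to 3.36 in Th17 and 2.41 to 3.53 in Th1 arrays. Csf1r carried that sum and was lower in Th17 and in Th1 than in naive cells (-0.78 and -0.72). The 4 neutrophil markers with a probe gave overlapping sums. They were 1.51 to 3.47 in Th17, 1.54 to 2.70 in Th1 and 1.77 to 1.88 in naive arrays. Among them, Mpo was above background on 3 Th17, 3 Th1 and 1 naive array, and S100a9 on 2, 2 and 0. The part of these markers in the results was not tested.

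Promoter windows, from 250 bases before to 50 bases after the annotated start, are shown for receptors with large fitted differences in Th17 against naive cells and that had an entry in the RefSeq table (GRCm38.p6). Of the rises, Lpar3 and P2ry1, above background on no naive array, are shown with Ltb4r1 and Ptger2. They are Lpar3 (chr3:146220711-146221010, plus strand), P2ry1 (chr3:61002535-61002834, plus strand), Ltb4r1 (chr14:55765712-55766011, plus strand) and Ptger2 (chr14:44987861-44988160, plus strand). The 2 largest falls above background on all 9 arrays with an entry were Gpr18 (chr14:121915839-121916138, minus strand) and Gpr132 (chr12:112860867-112861166, minus strand). Sequences run 5′ to 3′ along the gene, and capitals mark matches on either strand to TGANTCA (AP-1), GGAAA (NFAT core), AGGTCA (ROR half-site), AGGTGT (T-box) or TGTGGT (RUNX).
Lpar3: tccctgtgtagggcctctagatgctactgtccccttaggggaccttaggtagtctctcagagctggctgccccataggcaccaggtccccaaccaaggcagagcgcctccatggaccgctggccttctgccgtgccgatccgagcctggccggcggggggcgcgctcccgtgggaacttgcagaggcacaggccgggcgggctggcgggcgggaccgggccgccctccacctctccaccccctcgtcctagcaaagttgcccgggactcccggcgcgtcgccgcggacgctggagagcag
P2ry1: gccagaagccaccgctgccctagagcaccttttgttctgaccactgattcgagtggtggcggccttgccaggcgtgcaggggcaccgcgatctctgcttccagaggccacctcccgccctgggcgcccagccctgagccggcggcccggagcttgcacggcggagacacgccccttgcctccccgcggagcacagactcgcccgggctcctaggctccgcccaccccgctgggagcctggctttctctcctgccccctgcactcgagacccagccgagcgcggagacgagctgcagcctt
Ltb4r1: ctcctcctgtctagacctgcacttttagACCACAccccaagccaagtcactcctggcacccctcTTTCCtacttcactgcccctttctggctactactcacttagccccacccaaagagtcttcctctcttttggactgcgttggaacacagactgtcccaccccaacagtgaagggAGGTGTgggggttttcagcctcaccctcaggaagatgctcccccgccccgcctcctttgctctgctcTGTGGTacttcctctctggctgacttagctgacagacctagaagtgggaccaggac
Ptger2: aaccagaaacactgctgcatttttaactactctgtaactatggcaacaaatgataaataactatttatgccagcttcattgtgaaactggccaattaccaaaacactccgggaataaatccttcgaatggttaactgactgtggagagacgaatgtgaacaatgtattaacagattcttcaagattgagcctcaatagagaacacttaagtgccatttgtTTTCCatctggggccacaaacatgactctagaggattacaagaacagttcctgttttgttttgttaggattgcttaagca
Gpr18: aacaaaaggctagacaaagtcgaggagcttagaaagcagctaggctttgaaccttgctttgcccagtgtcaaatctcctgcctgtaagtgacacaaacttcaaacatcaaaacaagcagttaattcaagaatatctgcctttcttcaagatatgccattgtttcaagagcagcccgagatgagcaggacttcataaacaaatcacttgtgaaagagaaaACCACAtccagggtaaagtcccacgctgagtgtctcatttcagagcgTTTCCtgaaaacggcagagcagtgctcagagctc
Gpr132: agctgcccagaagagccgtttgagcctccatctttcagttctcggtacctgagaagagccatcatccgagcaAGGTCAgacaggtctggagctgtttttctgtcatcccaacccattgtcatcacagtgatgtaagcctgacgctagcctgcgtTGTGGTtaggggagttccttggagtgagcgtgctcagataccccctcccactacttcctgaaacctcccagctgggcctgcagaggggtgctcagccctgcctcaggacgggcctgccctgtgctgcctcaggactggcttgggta
Lpar3 and P2ry1 held none of the 5 letter strings, and 70.3% and 70.7% of their bases were G or C. Ltb4r1 held 1 GGAAA, 1 AGGTGT and 2 TGTGGT matches at 56.3% G or C. Ptger2 held 1 GGAAA match at 37.7%, Gpr18 1 GGAAA and 1 TGTGGT match at 44.0%, and Gpr132 1 AGGTCA and 1 TGTGGT match at 57.7%. Among the 32851 promoters of the table, 7.8% held TGANTCA, 61.3% GGAAA, 16.3% AGGTCA, 13.7% AGGTGT and 16.8% TGTGGT. A match is a string of letters and not a shown binding site.

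Against naive cells, Cysltr1 and Cysltr2 for cysteinyl leukotrienes, Ptger2 for prostaglandin E2 and Lpar3 and Lpar5 for lysophosphatidic acid were higher in both effector populations, while Gpr132, Gpr18 and Adgre5 were lower in both. In Th17 against naive cells 20 of 70 tested members were higher and 18 lower (limma, Benjamini-Hochberg adjusted p under 0.05), against 24.1% and 30.1% of the 19071 genes tested. In Th1 against naive cells 15 were higher and 17 lower, against 23.5% and 30.3% of all genes. In Th17 against Th1 cells 11 were higher and 8 lower, against 8.04% and 7.69%. The median change of tested members was 0.06 in Th17 against naive, -0.05 in Th1 against naive and 0.06 in Th17 against Th1 cells, beside -0.09, -0.09 and 0.00 for all genes. The 2 comparisons against naive cells share the naive arrays. In sorted bulk populations, fewer cells with a transcript and less transcript in each cell cannot be told apart.

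Receptors for leukotrienes, the lipid mediators made from arachidonic acid, showed the widest range, and all 4 genes were tested. Cysltr1, the high-affinity receptor for cysteinyl leukotrienes, had levels of 2.43, 2.15 and 1.15 on the Th17 arrays, -1.15, -2.13 and -3.61 on the Th1 arrays and -7.20, -7.00 and -6.68 on the naive arrays. The populations did not overlap, and no naive array was above background. Cysltr1 was therefore at least 133-fold higher in Th17 (limma adjusted p = 8.82e-06) and at least 7.18-fold higher in Th1 cells, both relative to naive cells (adjusted p = 0.000284 for Th1), each bound taking the dimmest above-background probe of the naive arrays as the naive level. Between Th17 and Th1 cells the difference was 4.21 ± 0.58 on the log2 scale (SE, adjusted p = 0.00212), and a second probe gave 3.23 (adjusted p = 0.00417).

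Ltb4r1, which encodes the high-affinity leukotriene B4 receptor that draws leukocytes to inflamed sites, had levels of 2.04, 1.15 and 0.59 in Th17, -3.08, -3.72 and -4.68 in Th1 and -4.26, -4.00 and -4.39 in naive cells. All Th17 arrays lay above the others, and Th1 and naive arrays overlapped. Its difference was 5.48 ± 0.45 in Th17 against naive (adjusted p = 2.76e-05), 0.39 ± 0.45 in Th1 against naive (adjusted p = 0.497) and 5.09 ± 0.45 in Th17 against Th1 cells (adjusted p = 0.000202). Ltb4r2, the low-affinity receptor for the same lipid and the next coding gene in the annotation, went the other way by small amounts, with -0.53 in Th17 (adjusted p = 0.0459) and -0.67 in Th1 against naive cells (adjusted p = 0.0186). Both Ltb4r2 calls ended with a slide term (adjusted p = 0.545 and 0.211) as well as without naive replicate 1 or 2. The Th17 call also ended without Th1 replicate 2 or Th17 replicate 1 or 2 (adjusted p up to 0.141), and the Th1 call without Th1 replicate 3 (adjusted p up to 0.0614). Cysltr2, the second cysteinyl leukotriene receptor, averaged -0.66 ± 0.26 in Th17, -1.49 ± 0.19 in Th1 and -2.49 ± 0.16 in naive cells (SD, n = 3 each). It rose by 1.83 in Th17 and by 1.0 in Th1 over naive cells (adjusted p = 4.57e-05 and 0.00127) and was 0.83 higher in Th17 than in Th1 cells (adjusted p = 0.0119). Within slide 2 that last difference was 0.96 with an adjusted p of 0.0643.

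**Figure D1:**
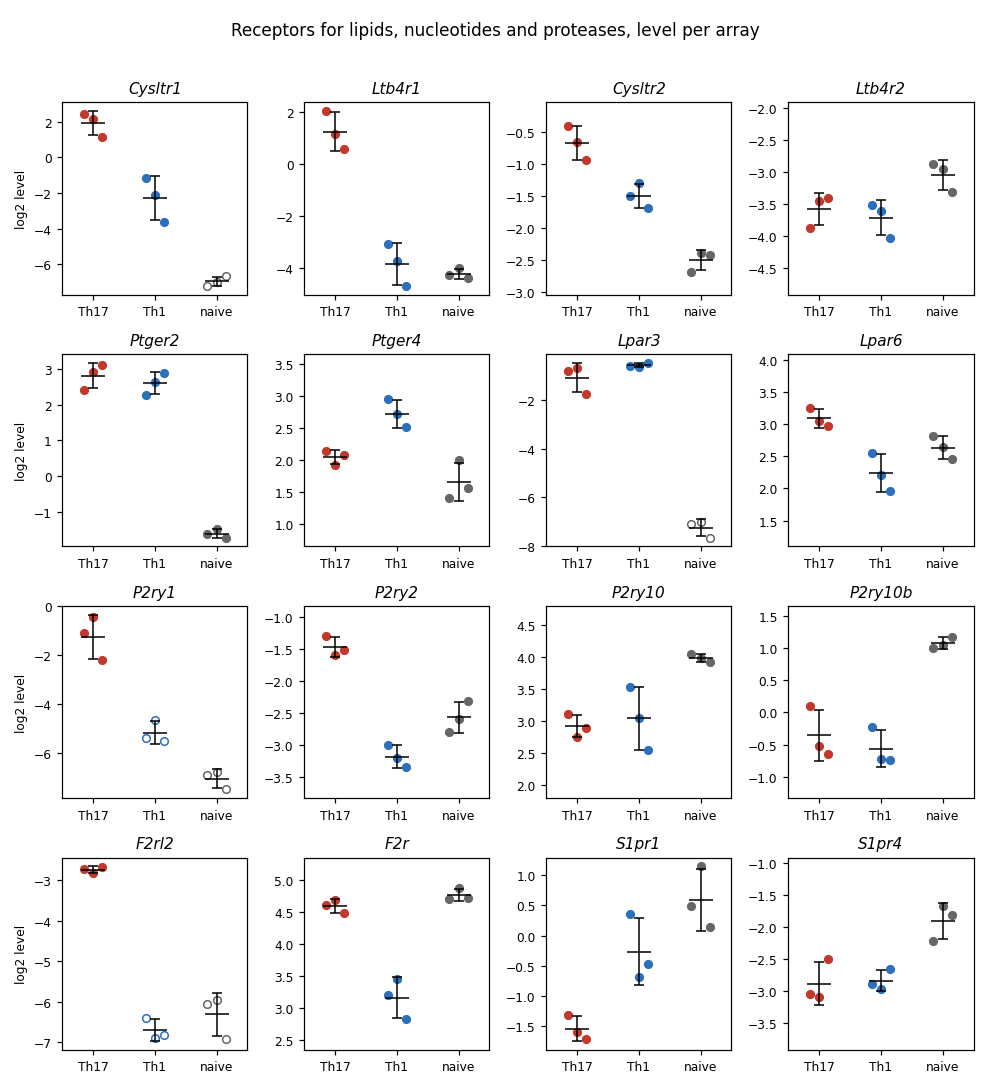
Levels (log2 intensity minus the 75th percentile of the array) of 16 ligand-named receptors on each array, with Th17, Th1 and naive cells side by side; bars are mean ± SD, n = 3, open points mark a population not above background on all 3 arrays, and each panel has its own axis. Cysltr1, Ltb4r1, P2ry1 and F2rl2 stand apart in Th17 cells, whereas Ptger2 and Lpar3 are high in Th17 and Th1 arrays alike.

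Of the prostanoid receptors 3 of 7 were tested. Ptger2, a Gs-coupled receptor for prostaglandin E2, had levels of 2.42, 2.93 and 3.1 in Th17, 2.28, 2.64 and 2.89 in Th1 and -1.61, -1.49 and -1.73 in naive cells. Naive arrays lay below all others, and Th17 and Th1 arrays overlapped. It rose by 4.43 ± 0.21 in Th17 (adjusted p = 1.81e-06) and by 4.22 ± 0.21 in Th1 cells (adjusted p = 2.18e-06), and the 2 effector populations differed by 0.21 ± 0.21 (adjusted p = 0.532). Ptger4, the other Gs-coupled receptor for this prostaglandin, had 2.14, 1.93 and 2.07 in Th17, 2.94, 2.72 and 2.51 in Th1 and 1.41, 1.99 and 1.57 in naive cells. Th1 arrays were the highest. Ptger4 rose by 1.07 in Th1 over naive cells (adjusted p = 0.00113), with 0.39 in Th17 over naive cells (adjusted p = 0.0893). Its 0.68 lower level in Th17 than in Th1 cells (-0.68, adjusted p = 0.0332) lost the call with a slide term (-0.58, adjusted p = 0.146) and when any Th17 array, replicate 3 of the naive cells or replicate 1 or 2 of the Th1 cells was dropped (adjusted p up to 0.0969). Ptgdr2, a prostaglandin D2 receptor of Th2 cells, did not pass in any comparison (adjusted p between 0.576 and 0.891).

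Receptors for lysophospholipids are described by ligand. Lpar3, a receptor for lysophosphatidic acid, had levels of -0.77, -0.67 and -1.75 in Th17 and -0.59, -0.61 and -0.45 in Th1 cells, against -7.10, -7.00 and -7.66 in naive cells, where no array was above background. It was at least 16.9-fold higher in Th17 (adjusted p = 1.81e-06) and at least 24.1-fold higher in Th1 cells, relative to naive cells (adjusted p = 1.09e-06 for Th1). Lpar5 rose by 0.97 in Th17 (adjusted p = 0.000537) and by 0.62 in Th1 over naive cells (adjusted p = 0.00537). Lpar6 was 0.86 higher in Th17 than in Th1 cells (adjusted p = 0.0111), and its 0.46 in Th17 over naive cells (adjusted p = 0.0481) lost the call without naive replicate 2 or 3, Th1 replicate 2 or any single Th17 array (adjusted p up to 0.151) and was 0.98 with a slide term.

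Of the 4 tested receptors for sphingosine-1-phosphate, the lipid that draws T cells out of lymph nodes, 2 fell in Th17 and 1 in Th1 against naive cells. Of all genes 30.1% and 30.3% were lower in these comparisons. S1pr1, the main exit receptor, had levels of -1.31, -1.60 and -1.70 in Th17, 0.36, -0.68 and -0.47 in Th1 and 0.49, 1.15 and 0.14 in naive cells. Th17 arrays were the lowest, and Th1 and naive arrays overlapped. The fall in Th17 against naive cells was -2.13 ± 0.32 (adjusted p = 0.000715), with -0.86 in Th1 against naive (adjusted p = 0.051) and -1.27 in Th17 against Th1 cells (adjusted p = 0.0308). A slide term left -1.11 in Th17 against naive (adjusted p = 0.141) and -0.88 in Th17 against Th1 cells (adjusted p = 0.144). Dropping any Th17 array, or replicate 1 or 3 of the Th1 cells, also ended the call against Th1 cells (adjusted p up to 0.0845). S1pr4, a lymphocyte form, fell by 0.98 in Th17 (adjusted p = 0.00359) and by 0.94 in Th1 cells (adjusted p = 0.00466). S1pr2 and S1pr3 did not pass in any comparison (adjusted p between 0.0844 and 0.727).

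Among the nucleotide receptors P2ry1, which binds ADP and couples to Gq, had levels of -1.08, -0.42 and -2.21 in Th17, -5.40, -4.64 and -5.50 in Th1 and -6.89, -6.79 and -7.50 in naive cells. Only the Th17 arrays were above background. P2ry1 was at least 15-fold higher in Th17 than in naive cells (adjusted p = 1.83e-05) and at least 13.0-fold higher than in Th1 cells (adjusted p = 0.00073), and no fold is given for Th1 against naive cells. P2ry2, a receptor for ATP and UTP, had -1.31, -1.60 and -1.53 in Th17, -3.00, -3.21 and -3.35 in Th1 and -2.80, -2.59 and -2.32 in naive cells, with no overlap between populations. It was 1.10 higher in Th17 than in naive (adjusted p = 0.0005) and 1.71 higher than in Th1 cells (adjusted p = 0.000221). Its -0.61 in Th1 against naive cells (adjusted p = 0.00994) lost the call with a slide term (-0.43, adjusted p = 0.163).

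P2ry10 and P2ry10b, adjoining genes on the X chromosome whose product P2ry10 responds to lysophosphatidylserine, were lower in both effector populations. P2ry10 was at -1.07 in Th17 (adjusted p = 0.00401) and -0.94 in Th1 (adjusted p = 0.00743), and both calls ended with a slide term (-0.32 and -0.45, adjusted p = 0.465 and 0.156). P2ry10b was at -1.44 in Th17 (adjusted p = 0.000705) and -1.65 in Th1 against naive cells (adjusted p = 0.00037), the call in Th17 ending with a slide term (-0.80, adjusted p = 0.112). Probes of near copies can share signal, so these 2 are uncertain. Gpr174, the next gene on that chromosome and also a lysophosphatidylserine receptor, was lower in Th17 than in naive (-0.71, adjusted p = 0.0164) and than in Th1 cells (-0.82, adjusted p = 0.0268). The call against naive cells ended without naive replicate 1 (adjusted p = 0.0517), and that against Th1 cells when replicate 2 or 3 of the Th1 cells, or 1 or 2 of the Th17 cells, was dropped (adjusted p up to 0.0952) and within slide 2 (adjusted p = 0.0585). A second Gpr174 probe gave -0.28 in Th17 against naive cells (adjusted p = 0.21) and -1.15 against Th1 cells (adjusted p = 0.00376).

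Of the protease-activated receptors, which thrombin or trypsin cleaves, all 4 were tested, and F2r, F2rl1 and F2rl2 lie close together on chromosome 13. F2rl2, a cofactor for thrombin signalling, had -2.71, -2.82 and -2.67 in Th17, -6.39, -6.89 and -6.82 in Th1 and -6.05, -5.96 and -6.92 in naive cells. Only Th17 arrays were above background, at least 5.31-fold over naive (adjusted p = 1.28e-05) and at least 5.10-fold over Th1 cells (adjusted p = 3.77e-05). F2r, the thrombin receptor, had 4.61, 4.70 and 4.49 in Th17, 3.21, 3.46 and 2.83 in Th1 and 4.71, 4.88 and 4.73 in naive cells. Th1 arrays were the low ones. F2r fell by 1.60 in Th1 against naive cells (adjusted p = 8.13e-05), stood at -0.17 in Th17 against naive cells (adjusted p = 0.385) and was 1.43 higher in Th17 than in Th1 cells (adjusted p = 0.000684). F2rl1, the trypsin receptor, varied on the Th17 arrays (-2.57, -7.70 and -2.76) and was not called, and F2rl3 was not called by its brighter probe. A dimmer second F2rl3 probe gave -0.56 in Th17 against naive cells (adjusted p = 0.0307), beside -0.59 by the brighter one (adjusted p = 0.278).

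Results for some receptors of adenosine and amines follow. Adora2a, the main adenosine receptor of T cells, averaged 1.66 ± 0.45 in Th17, 1.88 ± 0.37 in Th1 and 1.82 ± 0.14 in naive cells (SD, n = 3 each). Dimmer second probes of Adora2b and Adrb1 disagreed with the brighter ones, with 1.40 for Adora2b in Th17 against naive cells (adjusted p = 0.0015 against 0.236 by the brighter probe) and 2.90 for Adrb1 (adjusted p = 0.018 against 0.853). With a slide term the brighter Adora2b probe was also called, at 2.10 in Th17 against naive (adjusted p = 0.00789) and 1.36 in Th17 against Th1 cells (adjusted p = 0.0152). Hrh1, Hrh3 and Hrh4, the histamine receptors, did not pass in any comparison (adjusted p between 0.078 and 0.8).

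**Figure D2:**
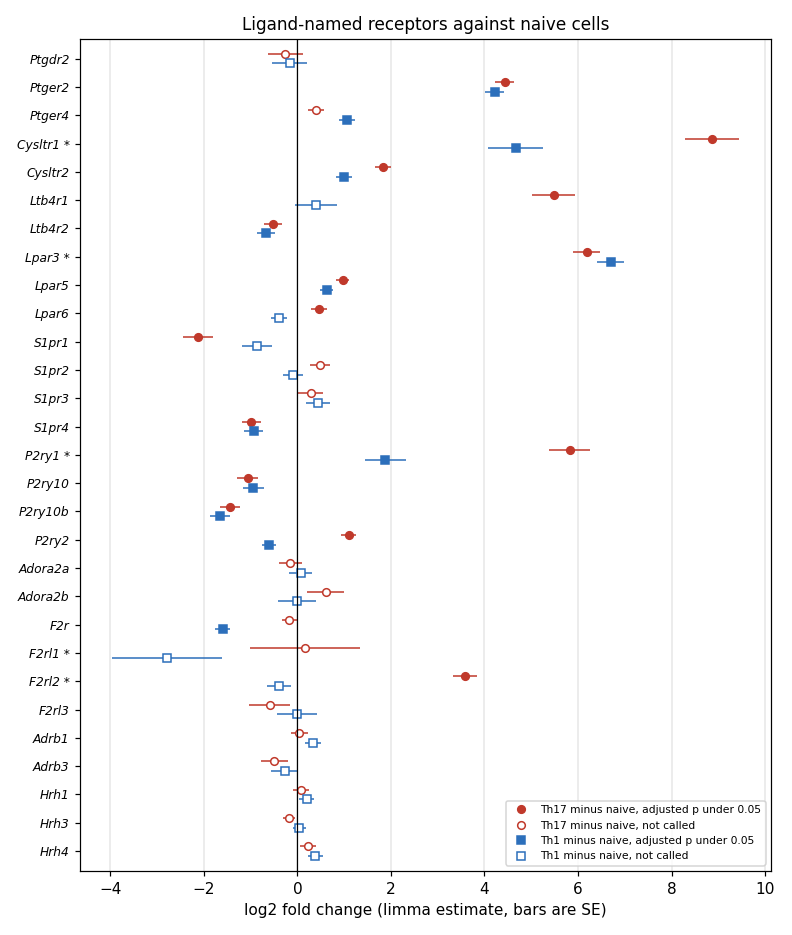
Log2 fold changes against naive cells of 29 tested ligand-named receptors, ordered by ligand from the top, for Th17 (red circles) and Th1 cells (blue squares), with bars of 1 SE from limma and filled symbols at an adjusted p under 0.05. Asterisks mark 5 receptors that a population showed above background on no array, whose plotted values are fitted and not measured folds. Ptger2 lies at 4.43 in Th17 and 4.22 in Th1 cells, and Ltb4r1 at 5.48 and 0.39.

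Among receptors reported to respond to protons, Gpr132 and Gpr4 fell and Gpr65 did not pass. Gpr132, which also answers oxidised fatty acids, had 4.02, 4.49 and 4.27 in Th17, 4.29, 4.49 and 4.31 in Th1 and 6.41, 6.31 and 6.13 in naive cells, the naive arrays being the high ones. It fell by 2.02 in Th17 (adjusted p = 1.23e-05) and by 1.92 in Th1 cells (adjusted p = 1.69e-05). Gpr4, above background on the 3 naive arrays alone, was at least 2.73-fold lower in Th17 (adjusted p = 4.28e-05) and at least 2.15-fold lower in Th1 cells (adjusted p = 2.04e-05). Gpr65, a Gs-coupled proton sensor named after its values were seen, was at 0.40 in Th17 (adjusted p = 0.105) and 0.28 in Th1 cells (adjusted p = 0.244).

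Receptors of T cell positioning differed as well. Gpr15, which directs T cells to the large intestine, had -3.25, -3.75 and -2.77 in Th17 and -3.37, -3.81 and -3.71 in Th1 cells, against -6.68, -6.39 and -7.76 in naive cells, where no array was above background. It was at least 3.70-fold higher in Th17 (adjusted p = 7.75e-05) and at least 2.85-fold higher in Th1 cells (adjusted p = 0.00015). Gpr18 and Gpr183 adjoin on chromosome 14. Gpr18, whose ligand is debated, had 0.84, 0.53 and 0.53 in Th17, 2.0, 1.56 and 1.31 in Th1 and 2.78, 3.02 and 2.71 in naive cells, with no overlap. It fell by 2.2 in Th17 (adjusted p = 3.16e-05) and by 1.21 in Th1 (adjusted p = 0.000826) and was at -0.99 in Th17 against Th1 cells (adjusted p = 0.00918, or 0.0895 within slide 2). Gpr183, the oxysterol receptor that places lymphocytes within follicles and their borders, was at -0.56 in Th1 against naive (adjusted p = 0.0324) and 0.66 in Th17 against Th1 cells (adjusted p = 0.0475). Both Gpr183 calls ended with a slide term (adjusted p = 0.295 and 0.0594). The first also ended without naive or Th1 replicate 2 or 3 (adjusted p up to 0.108), and the second without naive replicate 3 or any single Th1 or Th17 array (adjusted p up to 0.132).

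**Figure D3:**
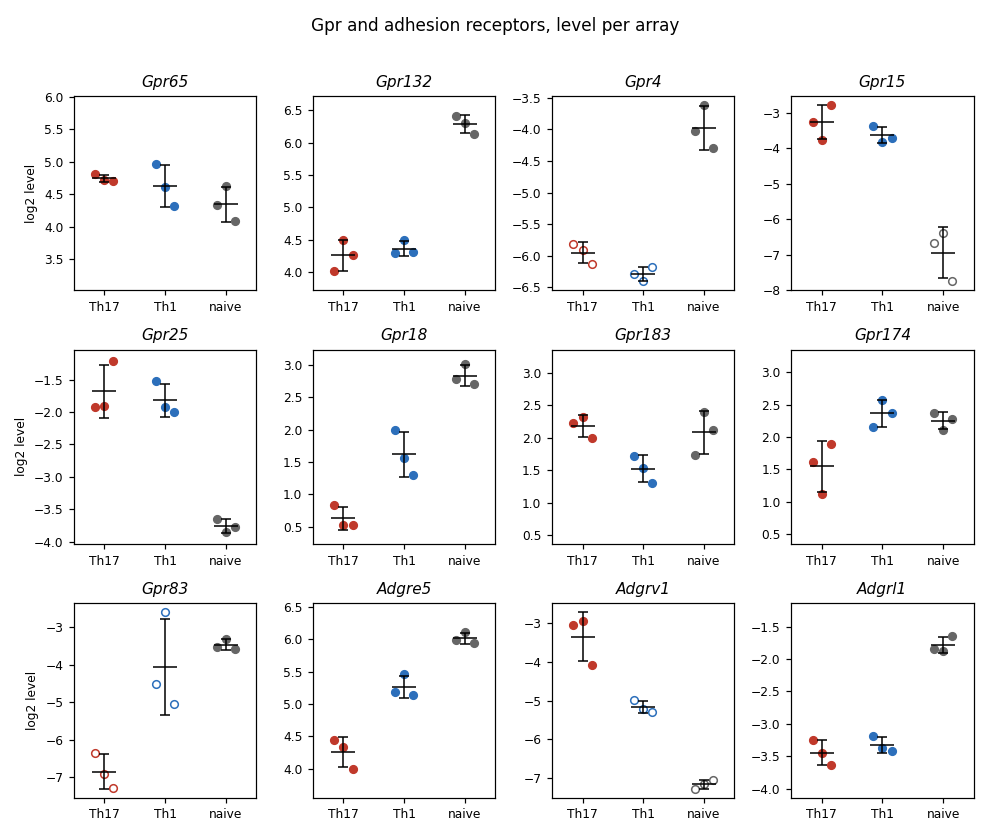
Levels of 12 Gpr and adhesion receptors on each array (log2 intensity minus the 75th percentile of the array), with Th17, Th1 and naive cells side by side; bars are mean ± SD, n = 3, open points mark a population not above background on all 3 arrays, and each panel has its own axis. Gpr15 and Gpr25 are low in naive cells, and Gpr132 is high there.

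Among the receptors with constitutive or unknown activity, Gpr25 averaged -1.68 ± 0.41 in Th17, -1.82 ± 0.25 in Th1 and -3.76 ± 0.11 in naive cells (SD, n = 3 each). It rose by 2.08 in Th17 (adjusted p = 8.56e-05) and by 1.94 in Th1 cells (adjusted p = 0.000135). Gpr6, which raises cyclic AMP without a ligand, rose by 1.29 in Th17 (adjusted p = 0.000157) and by 0.94 in Th1 cells (adjusted p = 0.000896). Its close relative Gpr3 was lower in Th17 than in Th1 cells (-0.54, adjusted p = 0.00883), a call that ended with a slide term (adjusted p = 0.0549). Gpr26 rose by 1.05 in Th1 over naive cells (adjusted p = 0.00128). Gpr83, a receptor known from regulatory T cells, was above background on all naive arrays (-3.52, -3.32 and -3.60), on 1 Th1 array (-4.53, -2.61 and -5.06) and on no Th17 array (-6.36, -6.90 and -7.28). It was at least 3.86-fold lower in Th17 than in naive cells (adjusted p = 0.00119). It was also called lower in Th17 than in Th1 cells (adjusted p = 0.0122, or 0.06 with a slide term), but with 1 Th1 array above background no fold is given. Gpr162, an orphan receptor, fell by 1.84 in Th17 (adjusted p = 1.46e-05) and by 0.79 in Th1 (adjusted p = 0.00137) and was at -1.05 in Th17 against Th1 cells (adjusted p = 0.00139).

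Some genes carry the Gpr name but encode proteins of the Golgi. Gpr89, a Golgi channel, rose by 1.06 in Th17 (adjusted p = 0.000285) and by 0.81 in Th1 cells (adjusted p = 0.00127). Gpr107 rose by 0.95 in Th17 cells (adjusted p = 0.00552). Gpr108 rose by 0.51 in Th1 (adjusted p = 0.00349) and by 0.72 in Th17 cells (adjusted p = 0.000594). With a slide term Gpr107 was at 0.24 in Th17 cells (adjusted p = 0.582). Gpr108 was then at 0.36 in Th1 (adjusted p = 0.0681) and 0.47 in Th17 cells (adjusted p = 0.0891). The orphan Gpr160 was at -1.27 in Th1 against naive cells (adjusted p = 0.0242), or -0.80 with a slide term (adjusted p = 0.212), and the call ended without naive or Th1 replicate 2 or 3 (adjusted p up to 0.0831). Its call in Th17 against naive cells (-1.05) lay at the threshold and ended with a slide term (adjusted p = 0.467) and without 6 of the arrays, replicates 2 and 3 of the naive and Th1 cells and 1 and 2 of the Th17 cells (adjusted p up to 0.15).

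Of 26 adhesion receptors, which have long extracellular domains that bind neighbouring cells or matrix, 9 were tested. In Th17 against naive cells 2 were higher and 3 lower, in Th1 against naive cells 1 and 3, and in Th17 against Th1 cells 2 and 1, beside the shares of all genes given above (24.1% and 30.1%, 23.5% and 30.3%, 8.04% and 7.69%). Adgre5, the leukocyte protein CD97 that binds CD55, had 4.44, 4.33 and 3.99 in Th17, 5.18, 5.46 and 5.15 in Th1 and 5.99, 6.11 and 5.95 in naive cells. The populations were fully separated. Adgre5 fell by 1.76 in Th17 (adjusted p = 2.56e-05) and by 0.75 in Th1 (adjusted p = 0.00247) and was at -1.01 in Th17 against Th1 cells (adjusted p = 0.00246). Adgrl1, the latrophilin next to it on chromosome 8, fell by 1.65 in Th17 (adjusted p = 2.09e-05) and by 1.54 in Th1 cells (adjusted p = 3.41e-05). Adgrb2 fell by 0.69 in Th1 cells (adjusted p = 0.00626).

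Adgrv1, the very large receptor of sensory hair cells, had -3.03, -2.94 and -4.07 in Th17, -4.99, -5.22 and -5.30 in Th1 and -7.28, -7.17 and -7.05 in naive cells. Its probe was above background on 3, 1 and 0 of these arrays, and a second probe was above background on 1 naive array. By this probe Adgrv1 was at least 3.47-fold higher in Th17 than in naive cells (adjusted p = 1.41e-05). It was also called higher in Th17 than in Th1 cells (adjusted p = 0.00342), where 1 of the 3 Th1 arrays measured it. Adgrg3, known from granulocytes, was 1.46 higher in Th17 than in naive (adjusted p = 0.0132) and 2.02 higher than in Th1 cells (adjusted p = 0.0108, or 0.0579 within slide 2). Adgrg3 against naive cells lost the call with a slide term (1.72, adjusted p = 0.116). Adgra3 was at least 3.89-fold lower in Th17 than in naive cells (adjusted p = 0.0105). It was above background on the 4 arrays of slide 1, at -2.88 on Th1 replicate 1 and -3.68, -3.15 and -3.58 on the naive arrays, and on none of slides 2 and 3. With a slide term the estimate was 0.34 (adjusted p = 0.448), so slide and population cannot be told apart for it.

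**Figure D4:**
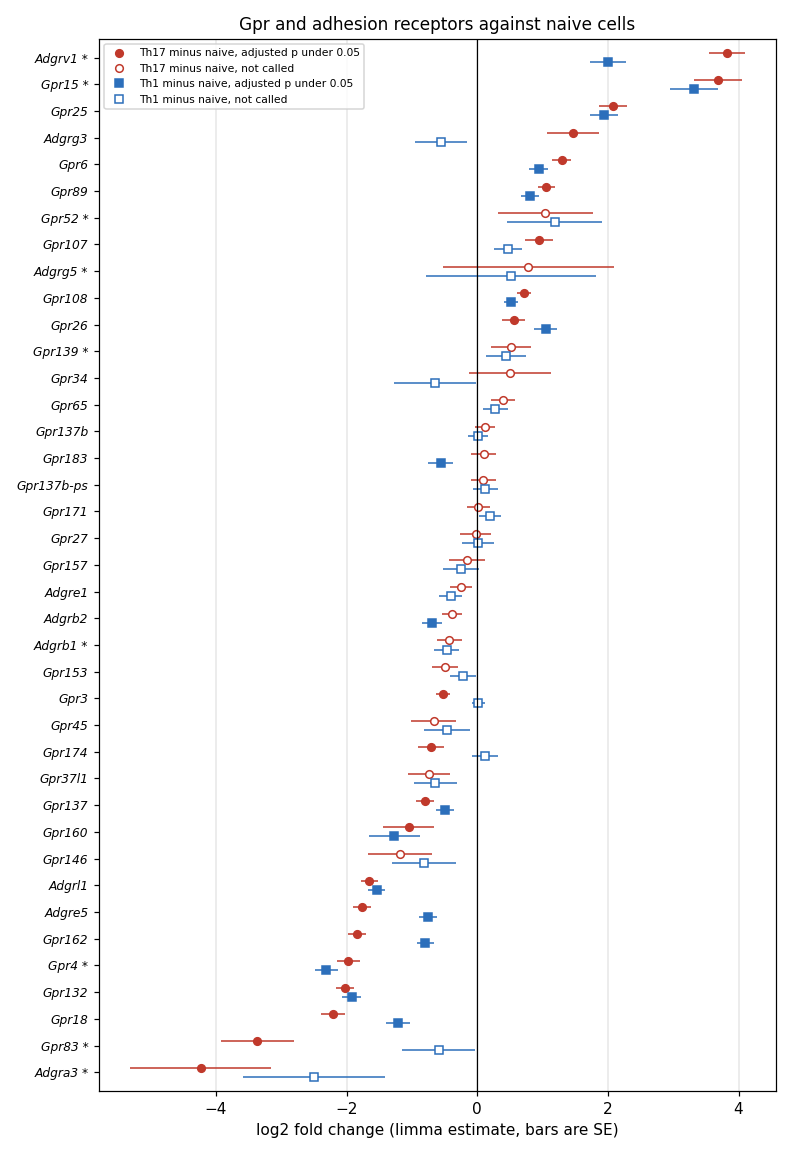
Log2 fold changes against naive cells of 39 tested Gpr and adhesion receptors, sorted from the top by the Th17 change, for Th17 (red circles) and Th1 cells (blue squares), with bars of 1 SE from limma and filled symbols at an adjusted p under 0.05. Asterisks mark 9 receptors that a population showed above background on no array, whose plotted values and places in the order are fitted and not measured folds. Gpr25 lies at 2.08 in Th17 and 1.94 in Th1 cells, and Gpr132 at -2.02 and -1.92.

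Between the 2 effector populations, among called receptors above background on every array of both, Ltb4r1 at 5.09 and Cysltr1 at 4.21 showed the largest differences toward Th17 cells, and S1pr1 at -1.27 and Gpr162 at -1.05 the largest toward Th1 cells. F2rl2 and P2ry1, above background on no Th1 array, are given as bounds above. Of the 19 called members, 8 of the 11 higher in Th17 and 4 of the 8 lower had a fitted difference of 2-fold or more. Among all genes these were 581 of 1534 called higher and 644 of 1467 called lower. The receptor counts include F2rl2, P2ry1, Adgrv1 and Gpr83, whose fitted values rest in part on arrays not above background. With a slide term Ltb4r1 and Cysltr1 were still called, at 5.80 and 5.16, as were F2rl2 and P2ry1 (adjusted p = 0.000983 and 0.00162). Gpr162 also kept its call, at -1.16 (adjusted p = 0.00587), and S1pr1 lost it (-0.88, adjusted p = 0.144).

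**Figure D5:**
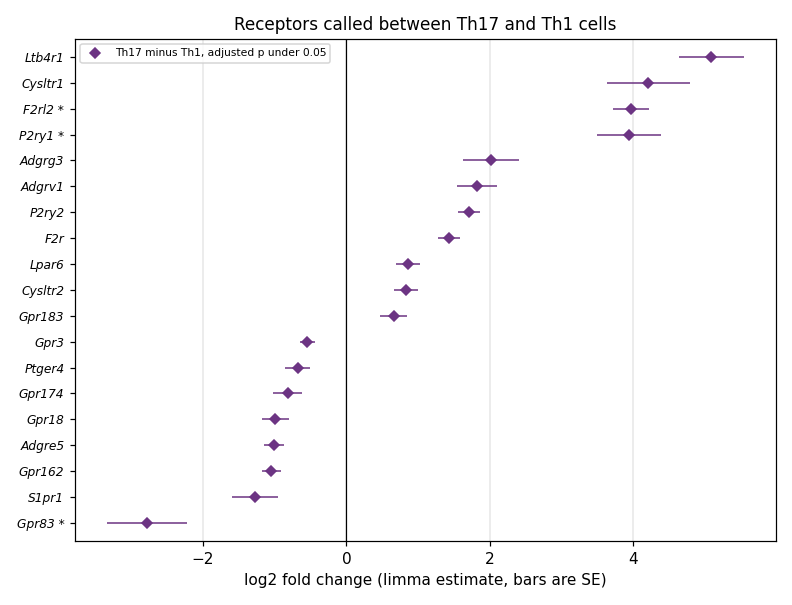
Log2 fold changes of Th17 against Th1 cells for the 19 called receptors, sorted from the top, with bars of 1 SE from limma. The 11 receptors right of 0 are higher in Th17 cells, with Ltb4r1 at 5.09. The 8 left of 0 are lower, with S1pr1 at -1.27, a call that ended with a slide term. Asterisks mark 3 receptors that a population showed above background on no array, whose plotted values are fitted and not measured folds.

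Genes that act with these receptors were described from 12 lists of G proteins, second-messenger enzymes and enzymes that make or destroy the ligands, with 110 genes tested. In Th17 against naive cells 27 were higher and 37 lower, in Th1 against naive cells 27 and 34, and in Th17 against Th1 cells 11 and 17. Their medians were -0.19, -0.12 and -0.17 for these 3 comparisons. With slide as a block 45, 57 and 19 of these genes were called, and slide values of single pathway genes are not given. The called shares were 58.2%, 55.5% and 25.5%, beside 54.2%, 53.9% and 15.7% of all genes.

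Single genes changed by large amounts. Gng2, a G protein gamma subunit, had levels of 3.23, 3.19 and 3.60 in Th17, 4.0, 3.78 and 3.68 in Th1 and -1.38, -1.46 and -1.56 in naive cells, and rose by 4.80 in Th17 (adjusted p = 2.7e-07) and by 5.29 in Th1 cells (adjusted p = 1.22e-07). Gnaq, the Gq alpha subunit, rose by 1.94 in Th17 (adjusted p = 2.06e-05) and by 3.90 in Th1 (adjusted p = 6.13e-07) and was at -1.96 in Th17 against Th1 cells (adjusted p = 9.86e-05). Of 10 tested phosphodiesterases, which break down cyclic nucleotides, 1 was higher and 4 lower in Th17, and 1 higher and 5 lower in Th1 than in naive cells. That is 5 and 6 of 10 called, near the 54.2% and 53.9% of all genes. Pde2a fell by 3.25 in Th17 (adjusted p = 0.000149) and by 2.70 in Th1 cells (adjusted p = 0.000437). Pde3b fell by 2.76 in Th1 against naive cells (adjusted p = 1.11e-05) and was 2.93 higher in Th17 than in Th1 cells (adjusted p = 3.9e-05).

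The enzymes of extracellular nucleotides and adenosine had 5 genes higher and 3 lower of 9 in Th17, and 4 higher and 3 lower in Th1 against naive cells. Among all genes 24.1% were higher and 30.1% lower in Th17, and 23.5% and 30.3% in Th1 cells. Ada, which removes adenosine, had -0.58, -0.09 and -0.48 in Th17, -0.92, -1.01 and -1.15 in Th1 and 2.43, 2.67 and 2.51 in naive cells. It fell by 2.92 in Th17 (adjusted p = 2.4e-06) and by 3.56 in Th1 cells (adjusted p = 8.31e-07), with naive arrays far above the rest. Nt5e, the ectoenzyme that makes adenosine, rose by 4.76 in Th17 (adjusted p = 2.79e-06) and by 4.79 in Th1 cells (adjusted p = 2.61e-06). Of 9 prostanoid and leukotriene enzymes 3 fell in either effector population, Ptges2, Ltc4s and Hpgds (adjusted p between 0.000391 and 0.0385 by limma). That share, 33.3%, is near the 30.1% and 30.3% of all genes that were lower. Maoa, which degrades amines, fell by 3.78 in Th17 (adjusted p = 9.93e-07) and by 2.96 in Th1 cells (adjusted p = 2.61e-06).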

How the data were processed

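Total RNA of 9 sorted samples (0.5 µg each) was labelled with Cy3 and hybridised to 1-colour Agilent arrays of design 026655. The deposited scanner files hold, per the file headers, an intensity on a linear scale, the processed signal after background subtraction by Agilent Feature Extraction (version 10.7.3.1 in the header and 10.5 in the submitters' processing notes), with no scaling between arrays. The authors' deposited table is in log2 values, which match the scanner values shifted to the 75th percentile plus a constant per probe (100% of values within 0.05), so its baseline is unknown, and it served as an alternative.

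After removal of control and outlier-marked spots, the array's 75th percentile was subtracted from each log2 processed signal, with repeated spots averaged per probe. Probes well above background on at least 3 arrays were kept (23215), and the brightest stood for its gene (19071 genes). Symbols came from RefSeq accessions for 27234 of 39429 probes, and 13080 tested genes had one. The annotation is of another build than the array design, so only its names and gene order were used, apart from the promoters, which are on GRCm38.p6.

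All 3 groups entered 1 model in limma (version 3.58.1, R 4.3.3, data.table at version 1.17.8), with a two-sided Benjamini-Hochberg adjusted p under 0.05 over all genes tested. The number of arrays limits the precision. The fit was tested on simulated data. Where no array of a group was above background, a fold is a lower bound that takes the dimmest above-background probe as the level of that group.

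Members, lists and the naming rule were chosen with earlier results of these data known. Every tested ligand-named member could be named. Of the Gpr and adhesion members, up to 8 rises and up to 8 falls per comparison were named, by size, from called genes that every array of the brighter group showed above background, and of each list up to 3 genes by adjusted p. Alternatives were normexp (offset 50), quantile and other percentile scaling, the authors' table, other probe filters and probe rules, 2-group fits, slide and replicate blocks, and leaving out each array. Enrichment tests were not used. Some genes that the rule names are left out of the text and plots, though counts include them. Sequences came from the RefSeq promoter set, which held 104 members.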

Additional observations from a re-analysis of the deposited data

How the results depend on the processing

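Of 38 receptor calls in Th17 against naive, 32 in Th1 against naive and 19 in Th17 against Th1 cells, 26, 24 and 14 kept direction and call with slide as a block, and 32, 27 and 15 kept them whichever single array was left out. For receptors described above, calls that ended are given there. Normexp background correction over all spots gave 1221 called genes in Th17 against naive, 1254 in Th1 against naive and 174 in Th17 against Th1 cells, with 9, 7 and 0 receptors and 10, 13 and 1 genes of the receptor pathway lists. This followed from Th1 replicate 2, where the lowest spot minus its background was -168448.5 and the corrected log2 values had an interquartile range of 0.163, against 2.51 to 3.46 on the other arrays. Under it Adgrb2 (0.45), Gpr160 (0.33), Gpr162 (0.32), Gpr4 (0.39), Ltb4r2 (0.37), P2ry2 (0.31) and S1pr4 (0.0085) changed sign in Th1 against naive cells and Adgrv1 (-0.085) in Th17 against Th1 cells. Fitted without outlier-marked spots, an alternative chosen after seeing the data, it gave 9250, 9267 and 2793 genes and 37, 30 and 18 receptors.

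With slide as a block 5213 genes were called in Th17 against naive cells, where Adgra3 (0.34) changed sign. No slide held both groups, and the cause was not tested. Within slide 1, 6528 genes differed in Th1 against naive cells, with 1 Th1 array. Within slide 2, 1404 genes and 11 pathway genes differed in Th17 against Th1 cells, and without a filter on dim probes 17 pathway genes did. When the 75th percentile was taken over probes bright on all arrays, the median over genes shifted in Th1 against naive cells from -0.092 to 0.055, and the higher share of calls from 43.7% to 55.2%, with 16 receptors higher and 14 lower. In Th17 against Th1 cells that share went from 51.1% to 41.6%.

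Leaving out single arrays gave 8815 to 10347 genes, 34 to 40 receptors and 56 to 65 pathway genes in Th17 against naive, 8641 to 10967, 27 to 39 and 53 to 67 in Th1 against naive, and 1917 to 2775, 16 to 19 and 18 to 31 in Th17 against Th1 cells. The lowest gene count, 1917, came without Th1 replicate 2, and 18 of the 28 pathway genes remained called without Th1 replicate 2, and 18 without Th1 replicate 3. Replicate numbers were not shown to pair samples. Same-number pairs correlated at -0.0069 to 0.175, with 3 of 9 above 0.1. Pairs with different numbers correlated at -0.197 to 0.0648, with 0 of 18 above 0.1, so the same-number range lay higher at both ends. With the replicate block 38, 33 and 18 receptors were called, and 10333, 10166 and 3006 genes. Gpr160 and Ltb4r2 in Th17 against naive cells and Gpr183 and Ptger4 in Th17 against Th1 cells then lost the call.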
